A study of Mus musculus with 4 samples.

Results

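RasGRP1 and the feedback inhibitors of the RAS-ERK pathway were followed in newly made RNA of double positive (DP) thymocytes, the immature T cells that carry both CD4 and CD8, with and without Tox4. The members were 10 genes of the 24984 in the fragment count table, taken by name and not by a value: the RAS activator Rasgrp1, the dual specificity phosphatase genes Dusp1, Dusp2, Dusp4, Dusp5, Dusp6 and Dusp10, the Sprouty genes Spry1 and Spry2, and the Sprouty-related gene Spred1. None of the 10 passed all criteria for a difference between genotypes. The differences nearest to the criteria were a higher output of Dusp10 and Spry1 and a lower output of Dusp2 in the cells without Tox4.

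Tox4 is a chromatin protein that the study examined as a regulator of RNA polymerase II during T cell development. In TTchem-seq, cells take up 4-thiouridine for a short time, the RNA is fragmented, and the labelled fragments are isolated and sequenced, so that introns are read together with exons and the signal follows ongoing transcription. There were 2 libraries of wild-type (WT) mice, genotype Tox4;F/F, and 2 libraries of conditional knockout (cKO) mice, genotype Tox4;F/F;Lck+. Both genotypes carried floxed Tox4 alleles, with loxP sites around exons 4 to 6, and the cKO mice also carried Cre under the proximal Lck promoter, which acts in early T lineage cells before the DP stage. Per the study's methods the mice were littermates of 6 to 8 weeks, bred from C57BL/6, and the cells were kept in fresh medium for 0.5 h before labelling. The WT label names no Cre, so that an effect of Cre itself and the loss of Tox4 cannot be told apart. For the chromatin assays the DP cells were purified by beads against CD4, which also take mature CD4 cells. For other assays, RNA-seq among them, DP cells were sorted by flow cytometry. How they were purified for these libraries is not stated.

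ERK is the last kinase of a cascade that starts when RAS is loaded with GTP. In thymocytes the T cell receptor, through the lipid messenger diacylglycerol, calls RasGRP1 to the membrane, where it loads RAS, and the strength and duration of the ERK signal are known to shape positive and negative selection at the DP stage. ERK activity switches on genes that then restrain the pathway. DUSP proteins take both phosphates off the activation loop of mitogen-activated protein kinases, while Sprouty and Spred proteins act further up, between the receptor and RAF.

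The libraries held between 38429786 and 48690591 fragments. Levels are given as CPM, the fragments of a gene per 1000000 fragments of its library. Tox4 itself was at 74.0 and 70.3 CPM in WT and at 59.3 and 57.2 CPM in cKO, and the genotypes did not overlap. Its log2 fold change of cKO over WT was -0.31 (SE 0.0998, DESeq2 adjusted p 0.0453), a fall of 19.4% for a count that covers the whole gene and not only the removed exons. The call was lost with limma voom, with edgeR on genes averaging 1 CPM or more and with any library left out. Of the 8 DP marker genes, all had a mean CPM of at least 1, and they summed to 2965 and 3606 CPM in WT and to 2975 and 2786 CPM in cKO. Of these 8, Cd8a (log2 fold change -0.54, DESeq2 adjusted p 1.21e-05) and Rag1 (-0.31, DESeq2 adjusted p 0.0499) were called lower in cKO, and the part of this in the values of the members was not tested. Of the mature single positive markers, 4 are reported, which summed to 443 and 433 CPM in WT and to 418 and 361 CPM in cKO, and of them Il7r (0.36) was called higher and Ccr7 (-0.34) lower. B cell markers summed to between 12.2 and 14.2 CPM, myeloid markers to between 8.75 and 11.2 CPM, and the 6 erythroid genes to at most 0.729 CPM. Of the 6 stroma and epithelium genes, which summed to between 362 and 419 CPM, Epcam, Krt5, Krt8 and Col1a1 each had a mean below 1 CPM, Pdgfrb was at 1.704 CPM and Pecam1, a gene that T lineage cells also express, at 391.7 CPM. WT replicate 1 stood apart in Xist, the RNA of the inactive X chromosome, with 172 CPM against at most 2.36 CPM in the other libraries, although the methods describe mice matched for sex. It also had the lowest level of the proliferation gene Mki67, with 100.03 CPM against between 169 and 242 CPM. The precursor ribosomal RNA Rn45s was higher in the replicates 2, with 43049 CPM in WT and 40460 CPM in cKO, than in the replicates 1, with 27121 and 24415 CPM.

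All 10 members had a mean CPM of at least 1. A gene was called when the DESeq2 adjusted p was under 0.05, the fold at least 1.2 and the mean CPM at least 1. By this rule 0 of 10 members were called higher in cKO, where 2.14% of 11625 genes were, and 0 of 10 were called lower, where 1.57% were. In either direction, 3.71% of all genes were called, so that a count of 0 among 10 genes is near the background. An unadjusted DESeq2 p under 0.05 was found for 4 members, Dusp10, Dusp2, Spry1 and Spry2, against 13.5% of all genes. The pair of cKO libraries was wholly above the WT pair for 3 members, Dusp4, Dusp10 and Spry1, where 24.9% of all genes did. It was wholly below for 3 members, Rasgrp1, Dusp2 and Spry2, where 24.0% of all genes did. The genotypes overlapped for Dusp1, Dusp5, Dusp6 and Spred1. Among the 10 genes the median log2 fold change came to -0.03, beside 0.00 over all genes. In bulk libraries, fewer cells of a type and less RNA per cell cannot be told apart.

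**Figure D1:**
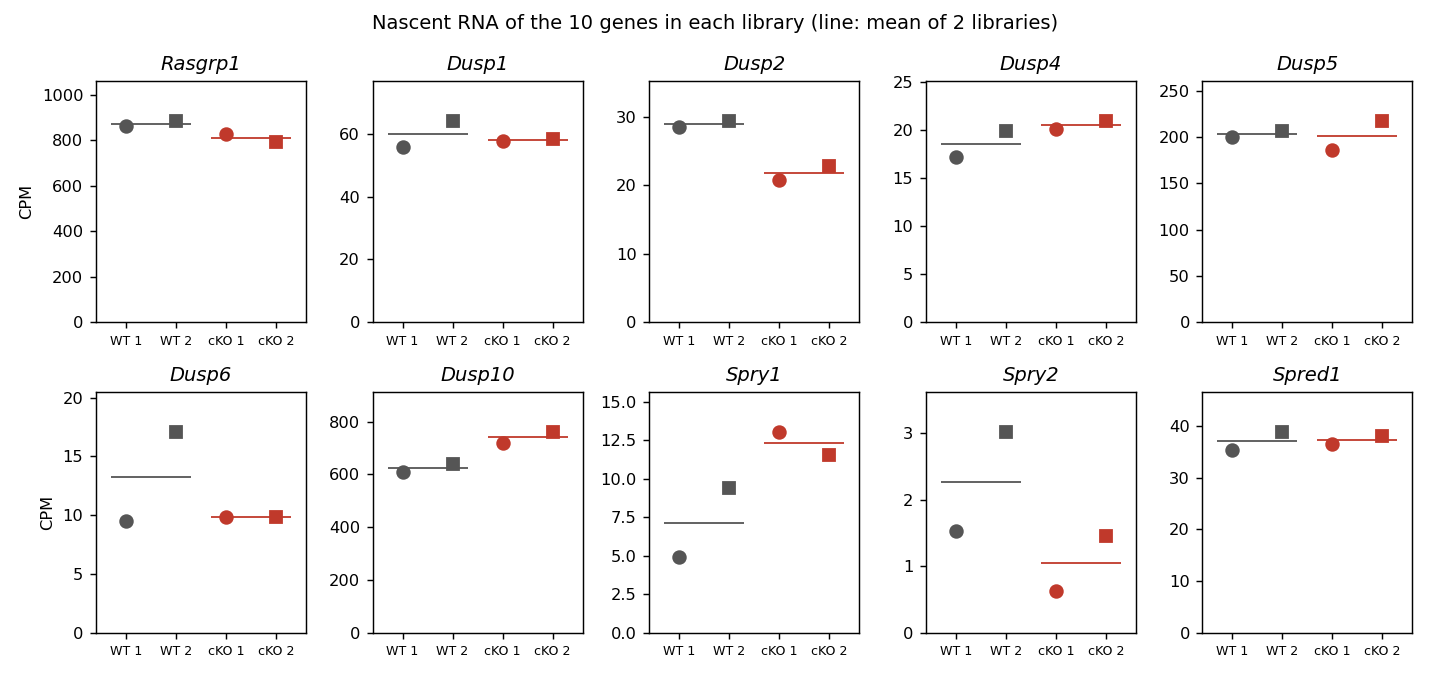
Level in CPM on the y axis, from 0, in each of the 4 libraries, with 1 panel for each of the 10 genes; points are libraries (circle, replicate 1; square, replicate 2) and lines are the means of the 2 libraries of a genotype. Dusp2 lay between 28.6 and 29.4 CPM in WT and between 20.8 and 22.8 CPM in cKO, while the WT libraries of Dusp6, Spry1 and Spry2 differed from each other by between 1.80 and 1.98-fold.

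Promoter sequence of these genes was read from RefSeq (GRCm38.p6), with 1 window before 1 annotated start for each of 9 of the 10 genes, and where transcription started in these cells was not measured; that of Dusp4 was not in the table used. Shown are the 250 bases before the annotated start of Dusp10, Spry1 and Dusp2, the genes nearest to the criteria, and of Dusp1 and Dusp5, which held a motif of factors downstream of kinase signalling. Capitals mark motif matches. Dusp1 lies at chr17:26508473-26508722 on the minus strand, Dusp2 at chr2:127335909-127336158, Dusp5 at chr19:53528895-53529144, Dusp10 at chr1:184034131-184034380 and Spry1 at chr3:37639697-37639946, all on the plus strand.
Dusp1: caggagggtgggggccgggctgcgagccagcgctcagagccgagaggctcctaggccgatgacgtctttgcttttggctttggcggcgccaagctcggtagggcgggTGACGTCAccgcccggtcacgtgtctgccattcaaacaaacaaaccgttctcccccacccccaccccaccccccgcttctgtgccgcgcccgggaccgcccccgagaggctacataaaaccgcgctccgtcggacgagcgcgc
Dusp2: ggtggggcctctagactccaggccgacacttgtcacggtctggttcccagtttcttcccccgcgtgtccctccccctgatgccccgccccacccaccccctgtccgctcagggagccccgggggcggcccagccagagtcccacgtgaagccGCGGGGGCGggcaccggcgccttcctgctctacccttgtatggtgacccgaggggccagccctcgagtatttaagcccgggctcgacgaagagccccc
Dusp5: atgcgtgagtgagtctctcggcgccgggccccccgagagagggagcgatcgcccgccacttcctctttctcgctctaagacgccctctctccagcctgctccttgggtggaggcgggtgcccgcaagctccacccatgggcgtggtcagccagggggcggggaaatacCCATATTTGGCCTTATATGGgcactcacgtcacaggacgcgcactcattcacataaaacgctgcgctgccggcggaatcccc
Dusp10: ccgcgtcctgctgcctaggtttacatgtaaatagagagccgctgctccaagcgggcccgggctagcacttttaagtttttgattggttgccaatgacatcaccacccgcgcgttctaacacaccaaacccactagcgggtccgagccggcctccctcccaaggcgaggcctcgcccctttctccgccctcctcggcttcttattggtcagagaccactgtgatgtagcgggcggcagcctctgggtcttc
Spry1: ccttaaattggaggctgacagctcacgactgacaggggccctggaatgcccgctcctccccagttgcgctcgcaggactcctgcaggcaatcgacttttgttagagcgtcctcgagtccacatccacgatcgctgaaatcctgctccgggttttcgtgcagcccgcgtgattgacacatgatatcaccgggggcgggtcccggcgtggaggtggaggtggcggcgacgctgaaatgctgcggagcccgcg

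Both strands of these windows were searched for 6 motifs. The cAMP response element TGACGTCA, bound by CREB and ATF factors, was found in Dusp1 at bases -143 to -136 from the start, and it was present in 1.55% of 32851 promoter windows of the same length. The EGR motif GCGNGGGCG was found in Dusp2 at -98 to -90, and in 4.70% of all windows. Dusp5 held 2 adjacent CArG boxes, the binding motif of serum response factor, at -82 to -73 and -72 to -63, and 1.47% of all windows held at least 1. The AP-1 motif TGANTCA, the ETS motif CCGGAAG and the TATA motif TATAAA were in none of the 9 windows, and in 6.75%, 6.91% and 12.4% of all windows. A match of letters is not a measured binding site, and its absence says only that these letters are not in the window. Guanine and cytosine made up between 56.4% and 70.8% of the 9 windows, with a median of 52.4% over all windows.

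Rasgrp1 (GRCm38 chromosome 2, 117279984 to 117342877, minus strand) spans 62894 bp in 17 exons, and 91.9% of it is intron. Its level was 861 and 883 CPM in WT against 827 and 790.0 CPM in cKO. Both cKO values lay below both WT values, by a margin smaller than the fold asked of a call. The means were 872 ± 16.2 CPM in WT and 809 ± 26.3 CPM in cKO (SD, n = 2). The log2 fold change was -0.11 (SE 0.0689, 95% interval -0.25 to 0.02, DESeq2 adjusted p 0.503). With each library left out in turn it ranged from -0.14 to -0.08. As a fold, the interval ran from 0.843 to 1.02.

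Among the nuclear phosphatases, Dusp2, an inducible phosphatase of activated lymphocytes, had the clearest difference. The gene (chromosome 2, 127336159 to 127338377, plus strand) is 2219 bp long with 4 exons. It was counted at 28.6 and 29.4 CPM in WT and at 20.8 and 22.8 CPM in cKO. The 2 libraries of each genotype were close together and the genotypes did not overlap. Dusp2 was 1.33-fold higher in WT, with a log2 fold change of cKO over WT of -0.41 (SE 0.14, 95% interval -0.69 to -0.14) and a DESeq2 adjusted p of 0.0675. It therefore missed the threshold. With each library left out in turn the log2 fold change stayed between -0.48 and -0.34. Between 800 and 1430.5 fragments were counted per library, and the fractions among them, whose assignment is not given in the sources used here, leave the level of Dusp2 uncertain by an amount that was not tested.

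Dusp1, which acts on JNK, p38 and ERK in the nucleus and is induced early by many signals, spans 2882 bp (chromosome 17, 26505591 to 26508472, minus strand). It was at 55.9 and 64.0 CPM in WT and at 57.7 and 58.3 CPM in cKO. The cKO libraries lay between the WT libraries. The log2 fold change was -0.05 (SE 0.111, 95% interval -0.27 to 0.17, DESeq2 adjusted p 0.908). Dusp5, a nuclear phosphatase selective for ERK (chromosome 19, 53529145 to 53541809, plus strand), was at 201 and 207 CPM in WT and at 186 and 217 CPM in cKO. Here the WT libraries lay between the cKO libraries, and the log2 fold change was -0.02 (SE 0.0926, 95% interval -0.20 to 0.17, DESeq2 adjusted p 0.976). For both genes the sign of the change turned when WT replicate 2 was left out, with log2 fold changes of 0.06 for Dusp1 and 0.01 for Dusp5. Dusp4, another nuclear phosphatase (chromosome 8, 34807610 to 34819894, plus strand), was at 17.1 and 19.9 CPM in WT and at 20.04 and 20.9 CPM in cKO. The higher WT library and the lower cKO library of Dusp4 were nearly level, and the difference of 0.14 on the log2 scale (SE 0.16, 95% interval -0.17 to 0.45, DESeq2 adjusted p 0.797) did not pass. It was 0.028 with WT replicate 1 left out and 0.26 with WT replicate 2 left out.

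Dusp6 is the cytoplasmic phosphatase selective for ERK and a widely used readout of ERK activity. The gene (chromosome 10, 99263231 to 99267489, plus strand) was counted at 9.48 and 17.1 CPM in WT and at 9.81 and 9.88 CPM in cKO. WT replicate 2 alone stood high, and the other 3 libraries lay together. The log2 fold change was -0.44 (SE 0.255, 95% interval -0.94 to 0.06, DESeq2 adjusted p 0.466). Leaving out WT replicate 1 gave -0.81 and leaving out WT replicate 2 gave 0.06, so that its size and direction rested on which WT library was kept.

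Dusp10 differs from the others in its substrates: it prefers the stress kinases p38 and JNK over ERK. Its gene (chromosome 1, 184034381 to 184075636, plus strand) spans 41256 bp, of which 93.2% is intron. It was counted at 609.6 and 638 CPM in WT and at 719.65 and 761 CPM in cKO. The cKO values were both above the WT values, and the gap between the genotypes was wider than the difference within either. The means were 624 ± 20.3 CPM in WT and 741 ± 29.5 CPM in cKO (SD, n = 2). The log2 fold change was 0.24 (SE 0.073, 95% interval 0.10 to 0.39) with a DESeq2 adjusted p of 0.0244. Dusp10 was the only member with an adjusted p under 0.05, and its 1.18-fold difference fell short of the 1.2-fold that the call asks for. Without the fold criterion 2.22% of all genes were higher, and 1 of the 10 members. The log2 fold change ranged from 0.20 without cKO replicate 2 to 0.29 without cKO replicate 1. The DESeq2 adjusted p was 0.453 without WT replicate 1, 0.340 without cKO replicate 1 and 0.853 without cKO replicate 2, and stayed under 0.05 only without WT replicate 2, at 0.0331. With limma voom the adjusted p was 0.136, and with the replicate number added to the DESeq2 model it was 0.223. With every library kept, it was 0.00115 with edgeR on every gene with a fragment. In DESeq2 it was 0.0289 with TMM factors, 0.0196 with total count factors and 0.0444 with independent filtering off. It was 0.0361 with the length trend removed and 0.0224 with at least 1 CPM asked of every library. In each of these fits the fold of Dusp10 stayed below 1.2.

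Spry1, an inhibitor of RAS-ERK signalling induced by it, had the largest positive log2 fold change of the 10 genes. The gene (chromosome 3, 37639947 to 37644599, plus strand) is 4653 bp long and has 4 RefSeq mRNAs. It was counted at 4.93 and 9.37 CPM in WT and at 13.0 and 11.5 CPM in cKO. Both cKO libraries were higher than both WT libraries, while the WT libraries differed from each other by 1.90-fold. Spry1 was 1.71-fold higher in cKO, a log2 fold change of 0.78 (SE 0.275, 95% interval 0.24 to 1.31) with a DESeq2 adjusted p of 0.0893. The size depended on the WT libraries: leaving out WT replicate 1 gave 0.38 (DESeq2 adjusted p 0.993) and leaving out WT replicate 2 gave 1.32 (DESeq2 adjusted p 0.00167). Without WT replicate 2, Spry1 and Dusp10 were both called higher, where 2.75% of 11642 genes were. WT replicate 1 is the library that stood apart in Xist and Mki67, and the part of this in the Spry1 values was not tested.

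Spry2 (chromosome 14, 105891947 to 105896819, minus strand), the other Sprouty gene among the members, was the lowest of the 10, with 65 and 147 fragments in WT and 24 and 58 in cKO. This is 1.52 and 3.02 CPM in WT and 0.625 and 1.46 CPM in cKO. The lower WT library and the higher cKO library were nearly level, and the replicates differed by about as much as the genotypes. The log2 fold change was -1.13 (SE 0.571, 95% interval -2.25 to -0.01), and DESeq2 gave no adjusted p because its independent filtering set the gene aside for its low count. Without WT replicate 2 it was -0.54, and without cKO replicate 2 it was -1.87. Spred1 (chromosome 2, 117121071 to 117182277, plus strand), which brings the RAS inactivator neurofibromin to the membrane, was at 35.3 and 38.8 CPM in WT and at 36.5 and 37.98 CPM in cKO. The cKO libraries of Spred1 lay between the WT libraries. Its log2 fold change was 0.00 (SE 0.123, 95% interval -0.24 to 0.24, DESeq2 adjusted p 0.995).

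**Figure D2:**
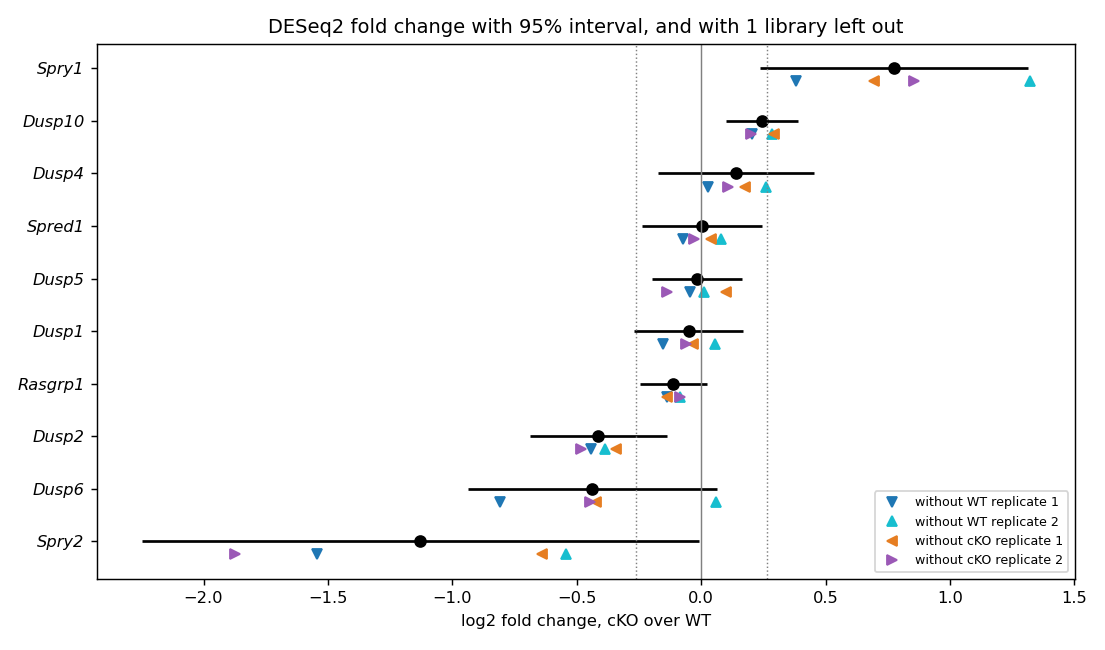
Log2 fold change of cKO over WT on the x axis for each of the 10 genes; black points with bars are the DESeq2 estimate and its 95% interval, triangles are the estimate with 1 library left out, and dotted lines mark the fold of 1.2. The interval of Dusp10 ran from 0.10 to 0.39 and that of Dusp2 from -0.69 to -0.14, and for Spry1 the estimate moved from 0.38 to 1.32 with the WT library that was kept.

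The WT libraries were also compared with each other. All 10 members had a higher CPM in WT replicate 2 than in WT replicate 1, where 50.7% of all genes did. In cKO, 8 of the 10 were higher in replicate 2, where 46.7% of all genes were. Rn45s was also higher in the replicates 2, and its part in this was not tested. Among the 5117 genes with a mean between 1 and 20 CPM, the median fold between the WT libraries was 1.15. A fold at least that of Dusp6 was found in 4.24% of these genes, at least that of Spry1 in 3.07% and at least that of Spry2 in 2.48%. The 3 least transcribed members by CPM thus varied more between the WT libraries than most genes of their level.

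Whether a member was called depended on the test. With the edgeR quasi-likelihood test on every gene with a fragment, Spry1 was called higher (adjusted p 3.74e-04) and Dusp2 (0.0440) and Spry2 (0.0313) were called lower, at backgrounds of 4.25% higher and 2.96% lower. With the same test on genes averaging 1 CPM or more, which called 0.654% of them in either direction, no member was called, and the adjusted p was 0.163 for Dusp10, 0.140 for Dusp2 and 0.254 for Spry1. With limma voom, which called 0.740% of all genes, 0 of the 10 were called, and 4 had an unadjusted p under 0.05, where 15.1% of all genes did. When the trend of each library with gene length was removed before the DESeq2 test, Spry1 was called higher (log2 fold change 0.83, adjusted p 0.0394), at a background of 1.98%.

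Per length, the members fell into a high and a low group. Levels between genes are given as the mean CPM per kb of gene in WT. Dusp1 was highest with 20.8, followed by Dusp5 with 16.1, Dusp10 with 15.1, Rasgrp1 with 13.9 and Dusp2 with 13.1. Dusp6 followed at 3.12, Spry1 at 1.54, Dusp4 at 1.51, Spred1 at 0.606 and Spry2 at 0.466. The ranges of the WT libraries overlapped between neighbours for Spry1 and Dusp4 and for Spred1 and Spry2, whose order is therefore not resolved. In cKO, Dusp10, at 17.9 CPM per kb with libraries from 17.4 to 18.5, stood above Dusp5, at 15.9 with libraries from 14.7 to 17.2. Spry1, at 2.64, stood above Dusp6, at 2.31. By CPM without division by length, Rasgrp1 came first and 9 of the 10 genes had another place. Introns are counted, so CPM per kb is a mean density over the whole gene.

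**Figure D3:**
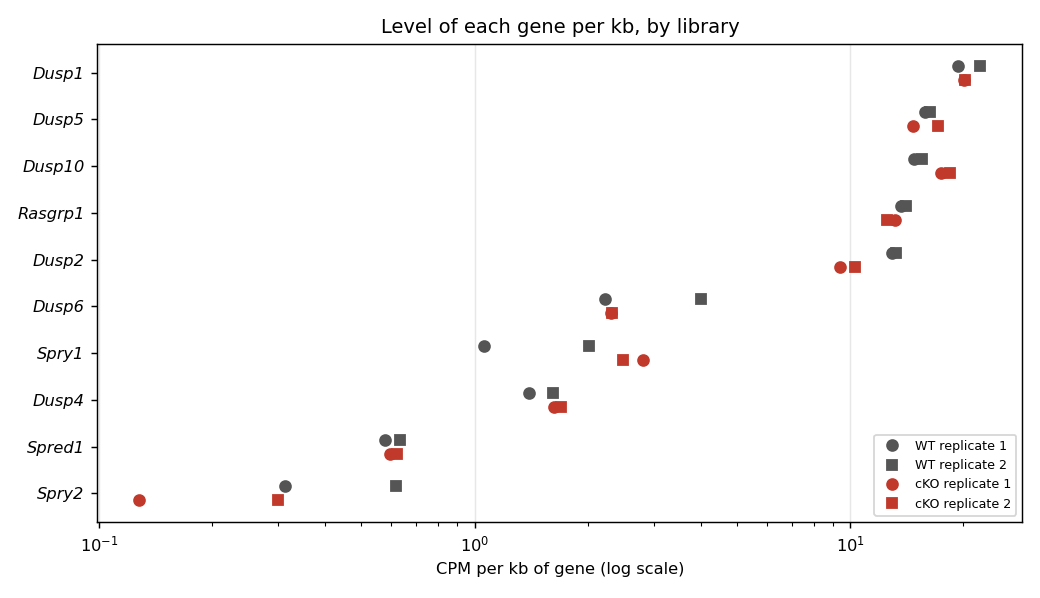
CPM per kb of gene on a log axis for each gene and library; grey points are WT and red points cKO, circles replicate 1 and squares replicate 2. The 5 genes at the top lay between 13.1 and 20.8 on average in WT, the other 5 at 3.12 or less, and only Dusp10 and Spry1 changed places with a neighbour in cKO.

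The wider pathway was described through 66 other genes in 7 roles, of which 57 had a mean CPM of at least 1. Of these 1 was called higher, 1 was called lower and 55 were not called, at the backgrounds of 2.14% and 1.57% given above. Log2 fold changes were positive for 30 genes and negative for 27, with a median of 0.02. The called increase was Rras2, a relative of the classical RAS genes. It was at 232 and 219 CPM in WT and at 276 and 271 CPM in cKO, and rose by 0.28 on the log2 scale (SE 0.076, DESeq2 adjusted p 0.0104). The called decrease was Mknk2, a kinase that ERK activates and that phosphorylates a translation initiation factor. It was at 282 and 281 CPM in WT and at 240.2 and 206 CPM in cKO, and fell by 0.34 on the log2 scale (SE 0.0871, DESeq2 adjusted p 0.00525). With any library left out Rras2 was no longer called, and Mknk2 was called only without cKO replicate 1. Both calls were lost with limma voom and with edgeR on genes averaging 1 CPM or more, and that of Rras2 also with the length trend removed.

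No gene was called among 12 other activators and adaptors, 9 RAS-GAP genes, whose products inactivate RAS, 12 kinases and scaffolds, 4 other phosphatases of this class and 2 other Sprouty and Spred genes. Of the 15 downstream kinases and transcription factors, 10 had a negative log2 fold change, with a median of -0.11. Among genes not called that averaged 1 CPM or more, the RAS-GAP gene Rasal2 (0.31) and Spred3 (0.25) had the largest log2 fold changes. The smallest among them were those of Rasgrp4 (-0.72, DESeq2 adjusted p 0.353), a relative of Rasgrp1 best known from mast cells, of the RAS-GAP gene Rasa4 (-0.42) and of Dusp8 (-0.41). Rasgrp1 was at 840.3 CPM over the 4 libraries, Rasgrp4 at 3.43 CPM and Rasgrp2 at 71.1 CPM, and none of these activators of the RasGRP family was called.

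**Figure D4:**
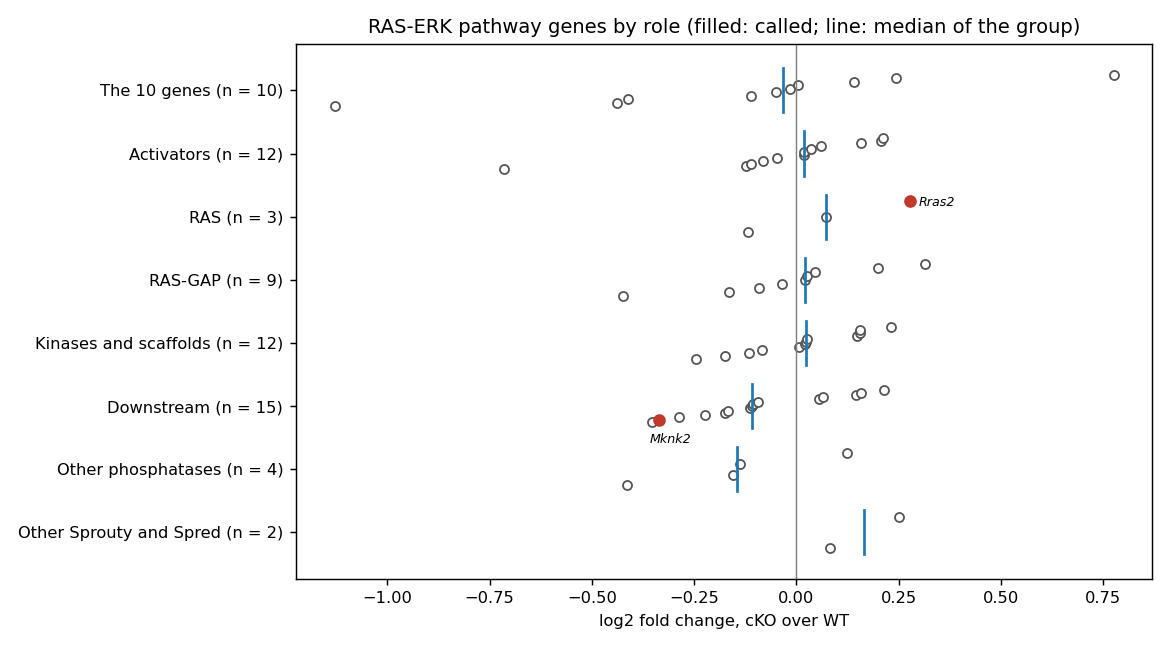
Log2 fold change of cKO over WT on the x axis for the 10 genes and for the pathway genes of each role with a mean CPM of at least 1; filled red points were called, open points were not, and blue lines are medians. Rras2 (0.28) and Mknk2 (-0.34) are the only called genes shown, and each role spans values on both sides of 0 except the other Sprouty and Spred genes.

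Genes of the early response, many of which ERK switches on through serum response factor and its partners, were described beside the feedback genes. Of 16 genes, 14 had a mean CPM of at least 1, 1 was called higher, where 2.14% of all genes were, and 4 were called lower, where 1.57% were. Egr1, a transcription factor gene and a classical ERK target, was at 19.1 and 16.9 CPM in WT and at 10.6 and 11.5 CPM in cKO, and fell by 0.70 on the log2 scale (SE 0.178, DESeq2 adjusted p 0.00406). Jun, a subunit of AP-1, was at 41.1 and 53.4 CPM in WT and at 35.2 and 28.6 CPM in cKO, and fell by 0.57 on the log2 scale (DESeq2 adjusted p 0.00774). The other called decreases were Ier5 (-0.53) and Zfp36 (-0.33), which encodes a protein that destabilises mRNA. Fosl2, another AP-1 subunit, was at 83.8 and 99.9 CPM in WT and at 120.4 and 139 CPM in cKO, and rose by 0.49 on the log2 scale (DESeq2 adjusted p 7.93e-04). Junb (-0.27) was not called. The median over the 14 genes was -0.36 and their median length 3328 bp, beside 22650 bp over all genes, and the part of length in these values was not tested. Of the 14, 11 had a negative log2 fold change and 3 a positive one. The cKO pair lay wholly below the WT pair for 8, where 24.0% of all genes did. It lay wholly above for 1, Fosl2, where 24.9% did, and the genotypes overlapped for 5. The summed CPM of the 16 genes, Fosl2 included, was 553 and 669 in WT and 562 and 555 in cKO. In this sum WT replicate 2 was highest and the other 3 libraries lay together.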

How the data were processed

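TTchem-seq data of DP thymocytes were used, with 2 WT and 2 cKO libraries. Sample titles gave the groups. The authors deposited expected counts of fragments per gene, of which 8.61% were fractional, with the gene length in bp, which is the whole gene with its introns. The submitters' processing notes name fastp 0.13.1, STAR 2.7.9a and featureCounts 1.6.1, with build mm10. How fractions were assigned and whether marked duplicates were removed is not given in the sources used here. Molecular identifiers are not mentioned, so a molecule may have been counted more than once, and any error taken from counts covers counting error only. Spike-in reads were not used.

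Expected counts were rounded to whole numbers and tested with DESeq2 1.42.0, the method the study states, by its Wald test over the whole table, with its own size factors and without shrinkage. Calls asked for an adjusted p (Benjamini-Hochberg) under 0.05, a 1.2-fold difference or more, and 1 CPM or more on average, which 11625 genes reached. CPM used the totals of the deposited table, 42626473 and 48690591 fragments for WT replicates 1 and 2 and 38429786 and 39760312 for cKO replicates 1 and 2. Intervals are the estimate and 1.96 SE on either side. The replicates differed by more than counting noise, with a chi-square of 40.7 per degree of freedom in WT and 30.7 in cKO. The study's reporting summary names 2 biological replicates for each genomic assay, and the labels do not say whether these were separate mice. The WT libraries differed in Xist, with 172 CPM in replicate 1 and 2.36 CPM in replicate 2. The p-values measure the spread between these libraries. Deviations from the group means correlated at -0.03 over 11625 genes between libraries sharing a number, and the numbers were not taken to pair samples. In both genotypes, though, most of the members and Rn45s were higher in replicate 2, as given above. A fit with the replicate number as a block is therefore given among the alternatives. The test was checked on simulated data. The alternatives used edgeR 4.0.16 and limma 3.58.1 in R 4.3.3. Tables and plots were made in Python 3.11.15 with numpy 2.4.6, pandas 2.3.3 and matplotlib 3.10.9.

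All 10 members and Tox4 were named, with every called gene of the pathway list and, among its genes averaging 1 CPM or more that were not called, the 3 largest and 3 smallest log2 fold changes, and every called gene of the early list and its 3 highest in CPM. Rasgrp2 was added after its values were seen. From the pathway list 2 genes, and from the marker lists 1, are not reported here, even where this rule would name them, and enter none of their counts. The members and lists were chosen with earlier results of these data known. Promoters were taken from RefSeq (GRCm38.p6).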

Additional observations from a re-analysis of the deposited data

How the results depend on the processing

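Over 139 alternative values of the members' log2 fold changes, 124 kept their direction and their side of the criteria. Another 6 passed the criteria newly and 9 turned in sign, 6 of them among the 40 fits without 1 library. The values with no mean CPM criterion could not differ, since all 10 members averaged 1 CPM or more. Turning independent filtering off leaves the log2 fold changes as they were, so their direction was fixed as well. The number of members called higher, 0, was 1 with edgeR on every gene with a fragment, 1 with the length trend removed and 1 with no fold criterion, and the number called lower, 0, was 2 with edgeR on every gene with a fragment. With 1 library left out the number called higher ranged from 0 to 2 and the number called lower was 0. In those fits the lone library was assumed to vary like the others. The alternatives with the length trend removed, with no fold criterion and with edgeR on genes averaging 1 CPM or more were chosen after seeing the data. In all, edgeR called 494 genes higher and 344 lower on every gene with a fragment, and 59 and 17 on genes averaging 1 CPM or more; limma voom called 64 and 22, and DESeq2 with 1 library left out between 61 and 320 higher and between 28 and 126 lower, against 249 and 182 with all libraries. The cause was not tested.

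The replicate block left 121 and 72 calls among all genes, and with it the DESeq2 adjusted p of Dusp10 was 0.223. With it, with limma voom and with edgeR on genes averaging 1 CPM or more, 0 pathway genes were called higher and 0 lower. With the length trend removed 0 were called higher. With 1 library left out the number called higher ranged from 0 to 1, Ksr2 alone without WT replicate 1, and the number called lower from 0 to 1.

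With the length trend removed the log2 fold change was 0.012 for Dusp1, 0.0057 for Dusp5 and -0.033 for Spred1. With 1 library left out it ranged from -0.15 to 0.057 for Dusp1, from -0.14 to 0.10 for Dusp5, from -0.81 to 0.059 for Dusp6 and from -0.072 to 0.080 for Spred1. Tox4 kept -0.31 but not its call with edgeR on genes averaging 1 CPM or more (adjusted p 0.122), limma voom (0.207), total count factors (0.0511), independent filtering off (0.0821) and the replicate block (0.361). It was at -0.30 with the length trend removed (0.0568), and between -0.34 and -0.28 with 1 library left out. The order of the members by level changed for 9 genes without division by length.

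With 2 libraries a genotype, the width of the intervals limits what can be said of each gene. Spry2 rested on between 24 and 147 fragments, and with at least 1 CPM asked of every library it could not be fitted. Xist was high in 1 WT library and in 0 cKO libraries, and its part in the values was not tested.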
